A study of Mus musculus with 6 samples.

Results

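A set of 34 genes was close to silent in mouse bone marrow cells transformed by MLL-AF9 WT and had reads in every library of cells transformed by MLL-AF9 E531R. The set was drawn from 47593 genes by 2 limits: a mean normalised read count of at least 50 over the 3 E531R libraries and a mean under 10 over the 3 WT libraries. In all 46 genes met both limits, and 12 of them were set aside by name or name family, among them Myof, Atp6v0d2, Mmp9, Marco, Egr1, Tlr8, Itgax, Il1a, Il1b and Cdh1. The opposite limits, a WT mean of at least 50 and an E531R mean under 10, were met by 57 genes. Because both means chose the members, their levels and differences are given as a description without a test.

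The E531R cells were c-Kit+ cells of mouse femur bone marrow that had been infected with the retrovirus MSCVneo carrying MLL-AF9 with the E531R substitution in AF9. The WT cells were the same kind of cells infected with MSCVneo carrying the unchanged MLL-AF9 fusion. Both groups had been selected on G418 and passaged serially in methylcellulose with cytokines, so both express a leukaemia fusion and neither is normal marrow. Total RNA of 3 libraries per group, 6 in all, was sequenced. The labels name replicates 1 to 3 but not whether they were separate infections, cultures or animals, and p-values reflect only how far these libraries scatter, which may be technical. The fusion was carried by a virus, and no gene level in the values analysed here checks which form a library held.

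MLL-AF9 joins the chromatin regulator MLL to AF9 and keeps a progenitor program running in myeloid cells. AF9 can bind BCOR, a corepressor that works in a variant Polycomb complex, and the series is titled for the loss of that binding. Several members encode surface receptors, ligands, enzymes and cell-shape proteins that textbooks place in macrophages, other phagocytes, lymphocytes or epithelia rather than in early progenitors.

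The E531R libraries held 23755210 to 33459668 reads assigned to genes and the WT libraries 14161139 to 30597351. A normalised read count is the number of reads divided by the size factor of its library, so that 1 read was worth 0.695 to 0.973 units in E531R libraries and 0.787 to 1.60 in WT libraries. WT replicate 3 stood somewhat apart, with a correlation of 0.978 with the other WT libraries, against 0.986 for WT replicates 1 and 2 and 0.996 for each E531R library. Kit itself, the receptor used for enrichment, had 3335 ± 4.07 in E531R and 3587 ± 99.96 in WT (SD, n = 3 each) and did not pass the test (limma adjusted p = 0.280). Of 12991 genes tested with limma, a model fitted across all genes with Benjamini-Hochberg adjustment, the threshold of 0.05 was passed by 1349 genes that were higher in E531R (10.4%) and by 1238 that were lower (9.53%). Without WT replicate 3 these counts were 3169 and 2974, and without 1 E531R library they were 804 to 823 and 764 to 806.

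The members' promoters were read from RefSeq on GRCm38.p6, as 250 bases before to 50 after each annotated start site. Of the 34 members, 23 matched by symbol, with 29 windows between them, and 11 had no window in the table. These 4 windows are shown because each holds TGANTCA, counted here as the motif of AP-1, the Fos and Jun family of transcription factors. N stands for any base, and each match is in capitals. They are Arap2 (chr5:62766128-62766427, minus strand), Fblim1 (chr4:141606003-141606302, minus strand), Emp1 (chr6:135362681-135362980, plus strand) and Havcr2 (chr11:46454681-46454980, plus strand), each written 5′ to 3′ on the strand of its gene.
Arap2: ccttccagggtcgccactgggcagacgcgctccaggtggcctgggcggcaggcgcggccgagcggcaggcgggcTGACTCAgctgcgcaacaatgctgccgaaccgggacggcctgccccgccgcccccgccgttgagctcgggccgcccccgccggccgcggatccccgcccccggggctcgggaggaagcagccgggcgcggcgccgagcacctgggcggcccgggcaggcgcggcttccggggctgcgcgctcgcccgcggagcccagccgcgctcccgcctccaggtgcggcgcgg
Fblim1: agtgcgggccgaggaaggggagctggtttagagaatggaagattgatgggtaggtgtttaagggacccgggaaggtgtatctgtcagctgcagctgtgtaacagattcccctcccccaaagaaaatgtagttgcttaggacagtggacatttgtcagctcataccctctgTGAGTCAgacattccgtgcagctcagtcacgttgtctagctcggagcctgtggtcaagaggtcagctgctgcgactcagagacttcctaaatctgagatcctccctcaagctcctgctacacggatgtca
Emp1: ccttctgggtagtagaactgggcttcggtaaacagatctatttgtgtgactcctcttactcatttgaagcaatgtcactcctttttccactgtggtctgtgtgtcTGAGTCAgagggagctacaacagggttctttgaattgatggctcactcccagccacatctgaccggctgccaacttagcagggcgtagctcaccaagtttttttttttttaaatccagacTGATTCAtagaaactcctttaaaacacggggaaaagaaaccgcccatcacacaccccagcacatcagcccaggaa
Havcr2: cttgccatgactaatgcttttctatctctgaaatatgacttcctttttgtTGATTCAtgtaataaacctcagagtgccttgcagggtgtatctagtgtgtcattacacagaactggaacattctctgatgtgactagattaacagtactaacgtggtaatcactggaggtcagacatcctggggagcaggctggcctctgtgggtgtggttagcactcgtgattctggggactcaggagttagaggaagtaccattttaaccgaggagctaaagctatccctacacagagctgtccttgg
These 2 windows are shown for their contrast in CpG content, with every CG in capitals. The Atf3 window (chr1:191183284-191183583, minus strand) has 27 CG, and the Il7r window (chr15:9529827-9530126, minus strand) has 1.
Atf3: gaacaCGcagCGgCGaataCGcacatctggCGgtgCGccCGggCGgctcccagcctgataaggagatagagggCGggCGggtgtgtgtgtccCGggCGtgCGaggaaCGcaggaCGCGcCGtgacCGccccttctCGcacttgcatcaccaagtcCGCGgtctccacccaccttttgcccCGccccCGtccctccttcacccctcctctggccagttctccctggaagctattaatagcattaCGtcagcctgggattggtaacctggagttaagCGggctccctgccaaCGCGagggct
Il7r: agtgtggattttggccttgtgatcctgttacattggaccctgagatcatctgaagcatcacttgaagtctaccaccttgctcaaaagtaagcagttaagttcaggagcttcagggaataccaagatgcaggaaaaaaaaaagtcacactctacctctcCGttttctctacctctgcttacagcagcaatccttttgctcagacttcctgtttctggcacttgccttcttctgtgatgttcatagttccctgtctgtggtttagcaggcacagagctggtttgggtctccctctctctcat

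The members were on the low side of expressed genes even in E531R cells. Their E531R means ran between 51.0 and 251 with a median of 79.7, while the E531R median over all 12991 tested genes was 634. Among the E531R means of tested genes they lay between the 19.4th and the 34.7th percentile. Their WT means ran between 0 and 9.77 with a median of 4.69, and 4 members had a WT mean under 1. With 175 to 875 reads per member over the E531R libraries and 0 to 29 over the WT libraries, the WT values rest on few reads. Only 5830444B04Rik had no read in any WT library, so the other members were low in WT cells rather than undetected.

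**Figure D1:**
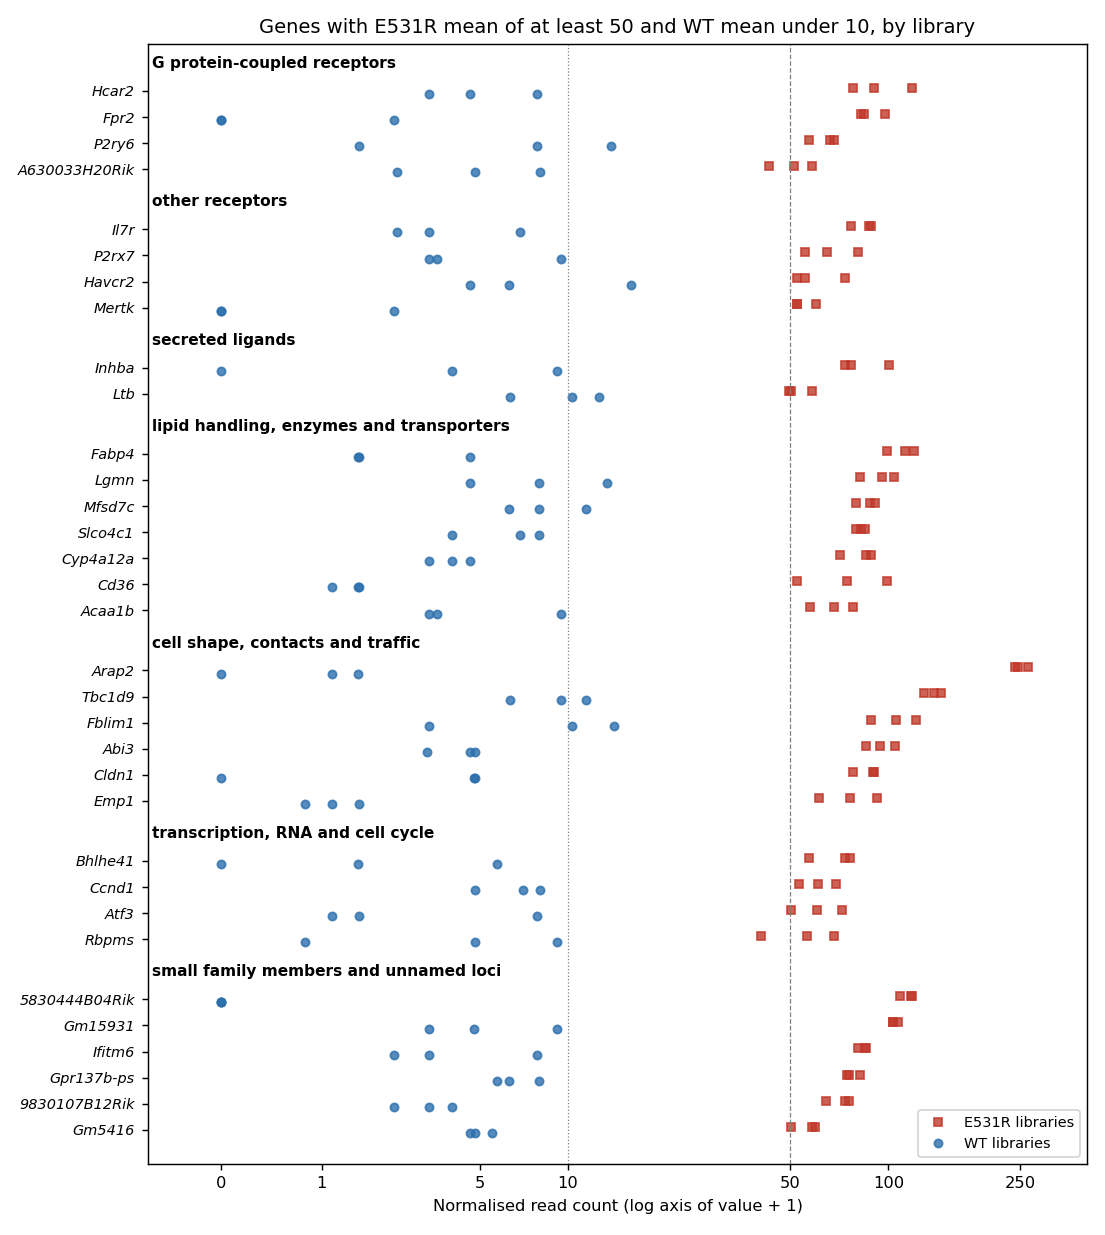
Normalised read count of each member described here in each E531R library (red squares) and each WT library (blue circles), on a log axis of value + 1, grouped by the role of the product; the dashed line is the E531R limit of 50 and the dotted line the WT limit of 10, both limits on means. The heading of secreted ligands is a grouping label for Inhba and Ltb and makes no statement on the secretion of Ltb. Single E531R values fall below 50 in A630033H20Rik, Rbpms and Ltb, and the 3 values of a group never reach those of the other, which the rule largely fixes.

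Among G protein-coupled receptors there were 5 members. Hcar2, the receptor for niacin and the ketone body beta-hydroxybutyrate, had 90.3, 77.9 and 118 in E531R replicates 1, 2 and 3, and 3.19, 4.59 and 7.87 in the WT replicates. Its E531R mean was 95.3 ± 20.4 and its WT mean 5.22 ± 2.40 (SD, n = 3 each), 18.3-fold apart. Fpr2, a receptor for formylated peptides on phagocytes, had 84.1, 82.7 and 97.3 in E531R and 0, 2.30 and 0 in WT. The WT value of Fpr2 comes from 2 reads, and the ratio of the pooled, scaled reads was 121, with a 95% counting interval of 33.3 to 1005. E531R replicate 3 held the highest value of both receptors, and in Fpr2 only WT replicate 2 held any read.

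P2ry6, a receptor for the nucleotide UDP, had 68.1, 57.4 and 66.2 in E531R and 1.60, 13.8 and 7.87 in WT. The P2ry6 libraries of the WT group thus differed more from each other, 7.75 ± 6.09, than those of E531R, 63.9 ± 5.70 (SD, n = 3 each). A630033H20Rik, which RefSeq names P2ry10b, had 43.1, 51.6 and 58.4 in E531R and 4.79, 8.04 and 2.36 in WT, the lowest E531R mean of the set at 51.0 ± 7.68 (SD, n = 3).

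Other receptors made up 4 members. Il7r, the alpha chain of the interleukin 7 receptor of lymphocytes, had 87.6, 88.6 and 76.9 in E531R and 3.19, 6.89 and 2.36 in WT, 20.3-fold apart in the means. Mertk, a receptor tyrosine kinase by which macrophages take up dying cells, had 52.8, 52.6 and 60.4 in E531R and 0, 2.30 and 0 in WT. Its 2 WT reads gave a pooled ratio of 76.0 with a counting interval of 20.8 to 632. P2rx7, an ATP-gated channel that feeds inflammasome activation, had 55.6, 65.2 and 80.8 in E531R and 3.19, 3.44 and 9.45 in WT. Havcr2, the inhibitory receptor TIM-3, had 55.6, 52.6 and 74.0 in E531R and 16.0, 4.59 and 6.30 in WT. Its single high WT value, in replicate 1, is 10 reads of the shallowest library, and its group means of 60.7 ± 11.6 in E531R and 8.95 ± 6.13 in WT (SD, n = 3 each) differed 6.78-fold, one of the smaller folds of the set.

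Both ligands in the set are members of cytokine families. Inhba, the subunit of activin A, had 77.1, 100 and 74.0 in E531R and 0, 9.18 and 3.94 in WT. Ltb, lymphotoxin beta of the tumour necrosis factor family, had 58.4, 49.6 and 50.6 in E531R and 6.39, 10.3 and 12.6 in WT. Ltb means were 52.9 ± 4.79 in E531R and 9.77 ± 3.14 in WT (SD, n = 3 each), 5.41-fold apart, the smallest fold in the set, and a WT mean under 10 kept it in.

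Lipid handling, enzymes and transporters gave 7 members. Fabp4, the fatty acid-binding protein of adipocytes and macrophages, had 98.7, 112 and 120 in E531R and 1.60, 4.59 and 1.57 in WT, 42.6-fold apart in the means. Cd36, a scavenger receptor and fatty acid translocase, had 75.1, 52.6 and 99.3 in E531R and 1.60, 1.15 and 1.57 in WT. The spread of Cd36 between E531R libraries, 30.9% of its mean, was the widest in the set, and its lowest E531R library, at 52.6, was still well above every WT library. Cyp4a12a, a fatty acid omega-hydroxylase, had 85.5, 71.0 and 88.6 in E531R and 3.19, 4.59 and 3.94 in WT. Acaa1b, a peroxisomal thiolase, had 57.7, 68.1 and 77.9 in E531R and 3.19, 3.44 and 9.45 in WT.

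Lgmn, the lysosomal protease legumain, had 95.9, 81.7 and 104 in E531R and 7.98, 4.59 and 13.4 in WT, 10.9-fold apart in the means. Mfsd7c, which RefSeq names Flvcr2, a transporter of the major facilitator superfamily, had 91.0, 79.8 and 87.6 in E531R and 7.98, 11.5 and 6.30 in WT. Slco4c1, an organic anion transporter, had 84.8, 79.8 and 82.7 in E531R and 7.98, 6.89 and 3.94 in WT. These 3 had WT means above 5, and their folds of 10.03 to 13.2 were smaller than that of Fabp4.

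Cell shape, contacts and traffic held 6 members, with Arap2 at the top of the whole set by read count. Arap2, a GTPase-activating protein for Arf GTPases, had 247, 265 and 241 in E531R and 0, 1.15 and 1.57 in WT. The means were 251 ± 12.2 in E531R and 0.908 ± 0.814 in WT (SD, n = 3 each), and the 3 WT reads gave a pooled ratio of 231 with a counting interval of 78.8 to 1123. Since Arap2 has an exon length of 12451 bases, its E531R level per kb of exon was 20.2, near the members' median of 21.6. Tbc1d9, of a family of Rab GTPase-activating proteins, had 128, 144 and 137 in E531R and 6.39, 11.5 and 9.45 in WT.

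Fblim1, a filamin-binding LIM protein of cell adhesions, had 121, 88.6 and 105 in E531R and 3.19, 10.3 and 14.2 in WT. Abi3, an Abl-interactor protein, had 105, 94.4 and 85.7 in E531R and 4.79, 4.59 and 3.15 in WT. Cldn1, a tight junction protein of epithelia, had 77.8, 89.5 and 90.5 in E531R and 4.79, 0 and 4.72 in WT, 27.1-fold apart in the means. Among these, Emp1, a small membrane protein, had 76.4, 61.3 and 92.5 in E531R and 1.60, 1.15 and 0.787 in WT, which is 1 read in each WT library. The pooled ratio of Emp1 was 70.8, with an interval of 24.0 to 345.

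Transcription, RNA binding and the cell cycle gave 4 members. Atf3, a stress-induced transcription factor, had 60.5, 50.6 and 72.0 in E531R and 1.60, 1.15 and 7.87 in WT. Bhlhe41, a transcriptional repressor of the basic helix-loop-helix family, had 76.4, 57.4 and 74.0 in E531R and 0, 5.74 and 1.57 in WT. Ccnd1, cyclin D1, had 61.2, 53.5 and 69.1 in E531R and 4.79, 8.04 and 7.09 in WT, 9.23-fold apart. Rbpms, an RNA-binding protein, had 68.1, 40.9 and 56.5 in E531R and 4.79, 9.18 and 0.787 in WT. In Atf3, Bhlhe41, Ccnd1 and Rbpms alike the lowest E531R value was that of replicate 2.

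The last 6 members are small family members and loci without a settled name. The long noncoding RNA 5830444B04Rik had 117, 108 and 117 in E531R and no read in any WT library, which is at least 106-fold higher in E531R against a floor of 3 reads over the WT group. Ifitm6, of the interferon-induced transmembrane family, had 80.6, 84.7 and 85.7 in E531R and 3.19, 2.30 and 7.87 in WT. Gm15931, an unprocessed pseudogene, had 103, 103 and 107 in E531R and 3.19, 9.18 and 4.72 in WT, with the smallest spread between E531R libraries, 2.26% of its mean. The pseudogene Gpr137b-ps had 82.0, 75.9 and 75.0 in E531R and 7.98, 5.74 and 6.30 in WT. 9830107B12Rik averaged 71.5 ± 6.04 in E531R and 3.14 ± 0.821 in WT, and Gm5416, which RefSeq names Csta3, averaged 56.3 ± 4.94 in E531R and 4.96 ± 0.484 in WT (SD, n = 3 each). Per kb of exon the E531R levels of members ran between 8.41 and 191, and the top value, that of Gm5416, rests on a model of 294 bases.

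Members varied between libraries to unlike degrees. The spread between E531R libraries had a median of 9.91% of the mean, and 17 members were under 10%, against a median of 8.07% over 1986 genes with E531R means in the same range. Replicate 3 gave the highest E531R value in 18 members and replicate 2 the lowest in 19. The same counts were not made over all genes, so these are not read as a trait of the members. The members' values summed to 2869, 2747 and 3027 in E531R replicates 1, 2 and 3 and to 129, 185 and 175 in WT replicates 1, 2 and 3, so that no single E531R library carried the set. The 5 members with the widest spread were Cd36, Rbpms, Hcar2, Emp1 and Havcr2.

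The limits are cuts in a continuous range. The members just inside the E531R limit were A630033H20Rik, Ltb and Rbpms, at 51.0, 52.9 and 55.1, and just outside it lay F730016J06Rik at 49.95 ± 15.8, Asb4 at 49.0 ± 16.1 and Pdpn at 48.7 ± 2.51 (SD, n = 3), with WT means of 2.62, 3.67 and 4.31. F730016J06Rik had 68.1, 38.9 and 42.8 in E531R and 3.19, 2.30 and 2.36 in WT. Asb4 had 50.7, 32.1 and 64.2 in E531R and 3.19, 2.30 and 5.51 in WT, and Pdpn 45.9, 50.6 and 49.6 in E531R and 3.19, 3.44 and 6.30 in WT. Inside the WT limit lay Ltb, Fblim1 and Tbc1d9 at 9.77, 9.23 and 9.10. Just above it were Gpr171, Plet1 and March1, with E531R means of 131, 51.7 and 148 and WT means of 10.5, 10.6 and 10.6. Gpr171 had 135, 136 and 121 in E531R and 3.19, 17.2 and 11.02 in WT, Plet1 47.9, 42.8 and 64.2 in E531R and 12.8, 8.04 and 11.02 in WT, and March1 138, 146 and 160 in E531R and 6.39, 18.4 and 7.09 in WT.

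**Figure D2:**
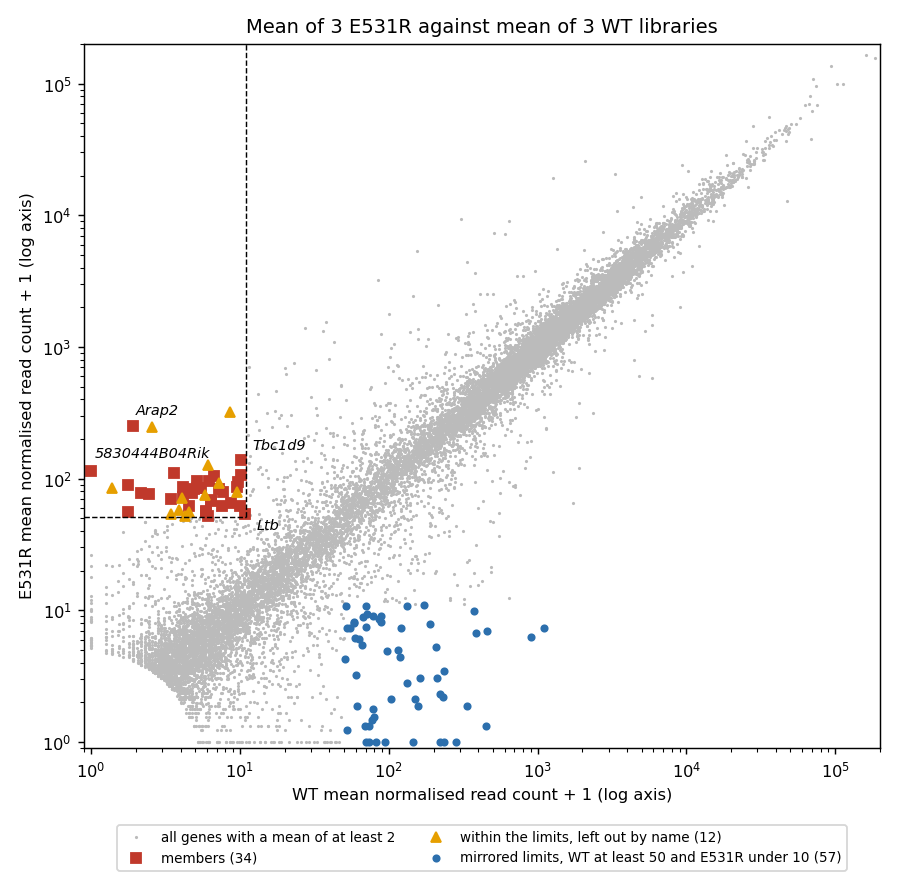
Mean normalised read count + 1 of 3 E531R libraries (vertical, log axis) against that of 3 WT libraries (horizontal, log axis) for each gene with a mean of at least 2, with the 34 members as red squares and the 12 genes set aside by name as orange triangles. The dashed lines are the limits of 50 and 10, and the 57 genes that meet the opposite limits are blue circles.

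Some members could take reads from other genes. Whether counting used strand is not stated in the labels, so for overlapping genes on opposite strands the reads cannot be told apart. Of the exons of Abi3, 70.1% lie antisense to Zfp652, at 2029 in E531R and 1941 in WT, 41.1% antisense to Phospho1, at 66.7 in E531R and 37.0 in WT, and 5.63% antisense to Gngt2, at 156 in E531R and 18.2 in WT. Of the exons of 5830444B04Rik, 8.37% lie antisense to Cfap74, with 36.1 in E531R and 4.06 in WT. Ccnd1 shares 23.4% of its exons with Oraov1, at 343 in E531R and 317 in WT.

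Near-identical copies touch 7 members whose transcripts share at least 20% of their 50-base stretches with another gene, Abi3 and Ccnd1 among them through these overlaps. Cyp4a12a shares 48.9% of its stretches with Cyp4a12b, and Acaa1b shares 30.5% with Acaa1a, at 1027 in E531R and 907 in WT. Gpr137b-ps shares 29.4% with Gpr137b, which had 118 in E531R and 12.2 in WT (log2 difference 3.44, adjusted p = 0.00493, limma). Gm15931 shares 27.8% with Pirb, at 419 in E531R and 29.2 in WT (log2 difference 3.80, adjusted p = 3.87e-06, limma), and Fpr2 shares 28.4% with Gm5966. Values of these members are uncertain by an amount that was not tested. In WT, Abi3 was at 4.18 with Zfp652 at 1941, Ccnd1 at 6.64 with Oraov1 at 317, and Acaa1b at 5.36 with Acaa1a at 907. Gpr137b and Pirb were higher in E531R, as were the members that share stretches with them. Cyp4a12b, at 39.1 in E531R and 1.70 in WT, also had the higher mean in E531R. The same holds for Cfap74, which overlaps 5830444B04Rik, and for Gngt2 and Phospho1, which overlap Abi3 as Zfp652 does. No shared stretch was found for 12 members.

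The 34 members lie at 34 positions on 16 chromosomes, with at most 4 on one chromosome, on chromosomes 5 and 7. GENCODE M21 marks 31 of them as protein-coding. For each member, the nearest protein-coding gene on each side within 100 kb was taken as its neighbour. Genes that overlap the member, other members and genes set aside by name in the rule were passed over. Among the genes left, neighbours were chosen by position and not by level, but passing over other members does depend on level. Of 55 such neighbours 29 were tested, 8 were higher in E531R (27.6%) and 2 were lower (6.90%), against 10.4% and 9.53% of all genes tested. The median log2 difference of the tested neighbours was 0.11, against 0.01 over all genes.

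Gm5483, 22292 bases from Gm5416 on chromosome 16, had 7236 ± 324 in E531R and 600.4 ± 74.8 in WT (SD, n = 3 each; log2 difference 3.60, adjusted p = 3.36e-06, limma). On the other side of Gm5416, 2010005H15Rik had 305 ± 19.2 in E531R and 17.8 ± 3.83 in WT (SD, n = 3 each; log2 difference 4.04, adjusted p = 1.62e-05, limma). Tnf, 3061 bases from Ltb on chromosome 17, had 522 ± 17.1 in E531R and 243 ± 8.16 in WT (SD, n = 3 each; log2 difference 1.10, adjusted p = 0.000133, limma). Cyp4a12b, beside Cyp4a12a, had 39.1 ± 6.64 in E531R and 1.70 ± 0.614 in WT (SD, n = 3 each). These 4 are the higher neighbours with the smallest adjusted p. Tnf encodes tumour necrosis factor, of the same family as Ltb, and Cyp4a12b shares the sequence stretches with Cyp4a12a given above.

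The other higher neighbours, named after their values were seen, were Fpr1 beside Fpr2, A530064D06Rik beside 9830107B12Rik, Spef2 beside Il7r and Lst1 beside Ltb. Without E531R replicate 3 the adjusted p of Spef2 became 0.0505 and that of Lst1 0.0651, and without E531R replicate 2 that of Lst1 became 0.0533. Fpr1 had 73 reads in E531R and 0 in WT. Fpr1, Cyp4a12b and A530064D06Rik have WT means under 10, so they passed the filter on low values through E531R and had to differ. That leaves 5 higher neighbours with a WT mean of at least 10, and the share of all genes was not recounted under this limit. Among them Gm5483 and 2010005H15Rik flank the same member, Gm5416, and Tnf and Lst1 both flank Ltb, so they are not independent. Of the 2 lower neighbours, Tmem82, 7280 bases from Fblim1, had 24.5 ± 5.64 in E531R and 106 ± 1.24 in WT (SD, n = 3 each; log2 difference -2.09, adjusted p = 0.000368, limma). Neighbours that did not pass the test included P2rx4 beside P2rx7, at 301 in E531R and 234 in WT, P2ry2 beside P2ry6, at 1089 in E531R and 906 in WT, and Batf beside Mfsd7c, at 690 in E531R and 701 in WT. Without E531R replicate 3, 5 neighbours were higher, and without WT replicate 3, 4 were lower.

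**Figure D3:**
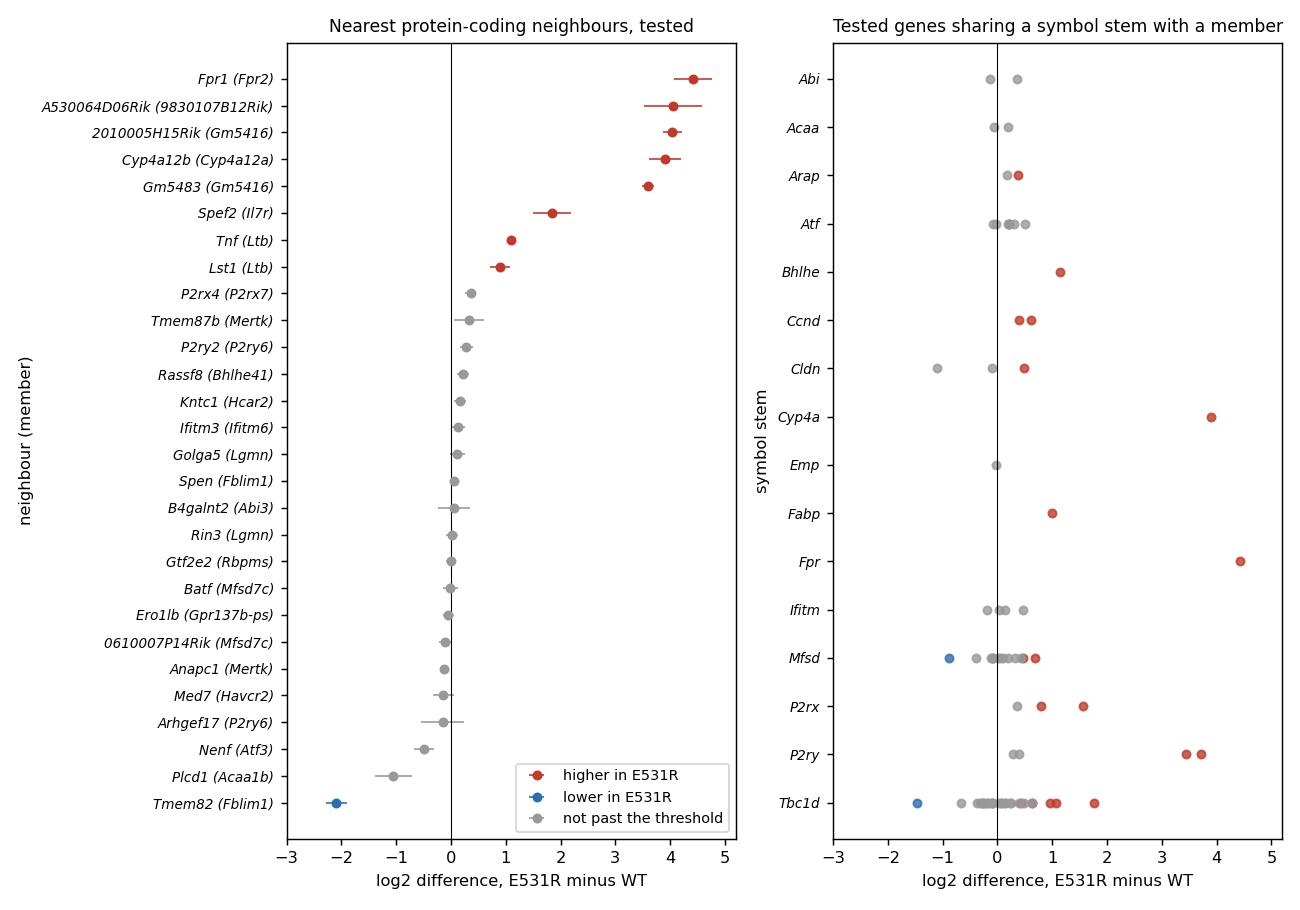
Log2 difference, E531R minus WT, of tested neighbours with its standard error (left, the member in brackets) and of tested genes that share a symbol stem with a member (right, 1 line per stem), for the genes described here; red is higher in E531R, blue lower and grey not past an adjusted p of 0.05. The 8 higher neighbours are drawn in red, and 1 of the 2 lower ones, Tmem82, in blue.

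Relatives of the members, that is genes whose symbol shares its stem, were counted in the same way. Only 17 of the 34 members had relatives to count, and other members and genes set aside by name were passed over. Among the tested relatives 28 were Tbc1d genes and 14 Mfsd genes, so 2 stems weigh heavily in the shares. Of 133 relatives 78 were tested, 21 were higher in E531R (26.9%) and 4 were lower (5.13%), against the same 10.4% and 9.53% of all genes, with a median log2 difference of 0.18. Of the tested relatives 3 had a WT mean under 10, and 18 of the higher ones had a WT mean of at least 10. In addition, 6 tested genes are both neighbours and relatives. Leaving out any single E531R library gave 13 higher relatives, and leaving out WT replicate 3 gave 38 higher and 12 lower. P2ry14, a receptor for UDP-glucose, had 511 ± 32.4 in E531R and 46.7 ± 7.73 in WT (SD, n = 3 each; log2 difference 3.44, adjusted p = 1.34e-05, limma). Tbc1d4 had 485 ± 24.3 in E531R and 143 ± 7.79 in WT, and Bhlhe40 had 1042 ± 17.1 in E531R and 469.9 ± 19.5 in WT (SD, n = 3 each).

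Lower relatives included Tbc1d30, Mfsd2a and Tbc1d5. Tbc1d30 had 100.1 ± 9.49 in E531R and 278 ± 39.9 in WT (SD, n = 3 each), and Mfsd2a 56.4 ± 4.32 in E531R and 105 ± 7.16 in WT (SD, n = 3 each). Tbc1d5, at 1309 in E531R and 1571 in WT, lost its call when WT replicate 1 or any E531R library was left out, at adjusted p-values up to 0.173, and also with no filter on low values, with DESeq2 and with the replicate block. Of 28 tested Tbc1d genes 5 were higher and 2 lower, of 14 tested Mfsd genes 2 were higher and 1 lower, and none of 4 tested Ifitm genes passed. Both tested Ccnd genes, Ccnd2 and Ccnd3, were higher, but Ccnd3 lost its call in 5 of the 6 fits that leave out 1 library, at adjusted p-values of 0.0514 to 0.0814. Higher relatives among those with large values were P2rx3, at 1350 in E531R and 455 in WT, Fabp5, at 4644 in E531R and 2359 in WT, and Ccnd2, at 6426 in E531R and 4919 in WT, all chosen after their values were seen.

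Markers of mature cell types, with members left out, moved in the same samples, and their part in the members' levels was not tested. Of 24 macrophage and monocyte markers 13 were tested, of which 11 were higher in E531R and 1 was lower. Of 20 neutrophil genes 19 were tested, of which 17 were higher and 1 lower. Over all genes tested, 10.4% were higher and 9.53% lower. The neutrophil list holds granule genes and others, such as S100a9, Cxcr2 and Cebpe. With genes of a WT mean under 10 left out, since they passed the filter on low values through E531R and had to be higher, these counts were 9 higher and 1 lower of 11, and 16 higher and 1 lower of 18. Mpeg1, the pore-forming protein of macrophages, had 3649 ± 210.4 in E531R and 382 ± 9.27 in WT, and S100a9 had 19325 ± 1244 in E531R and 1266 ± 127 in WT (SD, n = 3 each). Summed over their lists, macrophage and monocyte markers ran 45178 to 48970 in E531R and 30963 to 36618 in WT, and neutrophil genes 384234 to 403399 in E531R and 252921 to 318877 in WT. Mmp9, Atp6v0d2 and Itgax, which met the members' limits and were set aside by name, are counted in the lists they belong to. Timd4, a marker of resident macrophages, was at 0 reads in all 6 libraries. In bulk RNA, more cells of a type and more RNA per cell cannot be told apart.

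Other lists moved less evenly, and many of their genes were too low to be tested. The lists held 18 osteoclast, 16 megakaryocyte and platelet, 9 eosinophil, 16 stem and progenitor and 16 dendritic cell genes. There were 13 mast cell and basophil, 18 stroma and endothelium, 14 erythroid and 14 B cell genes. Osteoclast genes were higher in 7 of 13 tested and lower in 1, megakaryocyte and platelet genes higher in 6 of 8, and both tested eosinophil genes higher. With a WT mean of at least 10, osteoclast genes were higher in 3 of 9 and lower in 1, and megakaryocyte and platelet genes higher in 3 of 5. Stem and progenitor genes were higher in 3 of 12 tested and lower in 5, dendritic cell and antigen presentation genes higher in 2 of 5 and lower in 2. Under the same limit the first list had 2 higher and 5 lower of 11, and the dendritic list 0 higher and 2 lower of 3. Mast cell and basophil genes were lower in 2 of 5, stroma and endothelium genes lower in 2 of 5, and neither of 2 tested erythroid nor of 2 tested B cell genes passed.

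T and NK cell markers did not follow Il7r: Cd3e, Cd4, Cd8a, Klrb1c, Ncr1 and Gzma were at 0 reads in all libraries. The T and NK list summed to 400 to 436 in E531R and 793 to 1018 in WT, with Nkg7 lower in E531R, 1 of 2 tested. B cell markers summed to 489 to 604 in E531R and 397 to 571 in WT, and Ebf1, Ms4a1, Rag1 and Dntt were at 0 reads. Developmental regulators that Polycomb silences in many cell types had mostly no reads. Of 48 such genes 33 had no read in any library and 4 were tested, of which Pax8 was higher in E531R and 3 were lower, Hoxb13, which passed the filter through WT, and Irx5 among them.

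The members' promoter windows were poorer in CpG than those of other genes with similar E531R levels, which is a description without a test. The ratio of CG pairs seen to those expected from base content was at least 0.6 in 7 of 29 member windows (24.1%), against 57.3% of 1724 windows of genes whose E531R means lay in the members' range, 68.8% of 11813 windows of tested genes and 35.8% of all 32851 windows. The median ratio was 0.33 in members, 0.66 in genes of the same range, 0.75 in tested genes and 0.38 over all windows. By its median the member set lay nearer to all promoters of the reference than to those of tested genes. The windows were 0.94 for Arap2 and 0.87 for Atf3 at the upper end, and 0.065 for Il7r at the lower end.

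**Figure D4:**
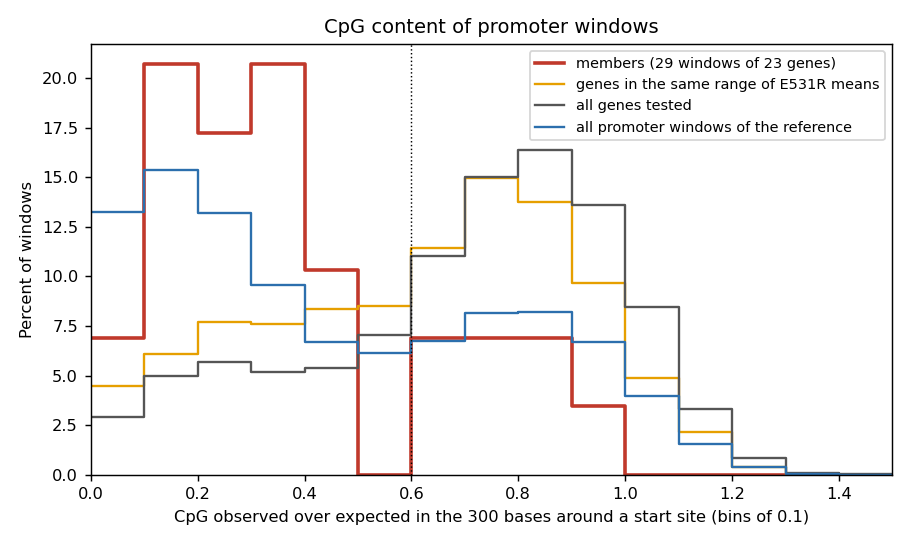
Share of promoter windows (vertical, percent) by their CpG observed-over-expected ratio in bins of 0.1 (horizontal), for the members' 29 windows, windows of genes in the same range of E531R means, of tested genes and of all promoters in the reference. The dotted line is the ratio of 0.6, which 24.1% of member windows reach.

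Short motifs were counted in the same windows on both strands, and a match is a description of letters only. The median GC content was 48.0% in member windows, 52.7% over all windows and 60.7% in those of tested genes. Motif shares were not adjusted for base content and were not counted for genes of the same E531R range. The AP-1 motif TGANTCA was found in 6 of 29 member windows (20.7%), of Arap2, Fblim1, Emp1, P2rx7, Havcr2 and A630033H20Rik, against 7.81% of all windows and 5.10% of windows of tested genes. Its first base lay at -176 from the start site in Arap2, -80 in Fblim1, -145 and -25 in Emp1 and -200 in Havcr2. The RUNX motif TGTGGT was found in 9 windows of 8 genes (31.0%), against 16.8% of all windows and 12.9% of those of tested genes. The PU.1 motif GAGGAAGT was found in 3 windows (10.3%), against 3.20% of all windows and 3.45% of those of tested genes, in P2rx7, Havcr2 and A630033H20Rik.

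The C/EBP motif TTGCNNAA was found in 5 windows of 4 genes (17.2%), against 10.8% of all windows and 8.58% of those of tested genes. The E-box CACGTG was found in 3 windows (10.3%), against 7.15% of all windows and 10.1% of those of tested genes, so its share was near that of tested genes. The motif CATGTGA was found in 2 windows (6.90%), against 3.99% of all and 2.40% of tested genes' windows, and TATAAA in 5 (17.2%), against 13.6% and 6.93%. TGANTCA and CACGTG read the same on both strands and count once per place, and the matches to TATAAA in A630033H20Rik overlap each other. Several windows belong to the same gene, and the shares of members rest on 29 windows.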

How the data were processed

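Per the submitters' processing notes, reads were processed with FastQC, cutadapt, HISAT2, SAMtools, featureCounts and DESeq2 on GRCm38. The table deposited by the authors holds signal values, gene read counts divided by a size factor per library. Each value was a whole multiple of 1 read within 0.001 for 100% of values, so whole reads were recovered. The authors' deposited log2 fold changes, score statistics and p-values were not used. The floor of 3 reads and the 95% intervals hold only for counting error, because the reads carried no molecular identifiers and may repeat molecules.

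Genes averaging at least 10 over the libraries were tested two-sided with limma 3.58.1 (R 4.3.3), using log2 of the values after adding a pseudocount of 1, a trend in the variance and a threshold of 0.05 on the adjusted p. Log2 differences understate the change of low genes. On whole reads, edgeR 4.0.16 quasi-likelihood called 1393 genes higher and 1251 lower. Alternatives were edgeR, DESeq2 1.42.0, TMM rescaling, pseudocounts of 0.5 and 10, other filters, the replicate block and leaving out each library. Positions and overlaps came from GENCODE M21 and promoters from RefSeq on GRCm38.p6. Other steps used Python 3.11.15 and matplotlib 3.10.9.

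The members, marker lists and motifs were chosen with earlier results of these data known. The rule for named genes gave every member with a settled name, per-library values for the 12 highest, the 5 most variable and those near the limits, the 4 neighbours and relatives with the smallest adjusted p in each direction and a few genes per list. The results of 1 member, of genes tied to it and of 1 list gene are not reported here, though they are in the counts.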

Additional observations from a re-analysis of the deposited data

How the results depend on the processing

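The set of 34 members became 35 under TMM rescaling and 25 when every E531R library had to reach 50 and every WT library stay under 10. An E531R mean of at least 100 left 6 and one of at least 25 gave 100, while a WT mean under 5 left 19 and one under 20 gave 77. Leaving out 1 library gave 33 to 40 genes. Without WT replicate 1, Fblim1, Ltb, P2ry6 and Tbc1d9 dropped out, without WT replicate 2 Havcr2 and Lgmn, and without WT replicate 3 Havcr2. Rbpms dropped out without E531R replicate 1 and A630033H20Rik without E531R replicate 3. Of 306 alternatives of the members' log2 differences 39 moved by more than the spread between replicates and 0 reversed, over a range of 1.68 to 7.84. The rule largely fixes the sign of these differences, so the lack of reversals carries no weight.

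Over all genes, leaving out 1 library gave 804 to 3169 higher and 764 to 2974 lower calls, against 1349 and 1238. The upper ends came without WT replicate 3, and without E531R replicates 1, 2 and 3 the counts were 804, 814 and 823 higher and 764, 769 and 806 lower. Neighbours higher in E531R numbered 5 to 12 and those lower 2 to 4, against 8 and 2, and a mean of at least 50 left 5 higher. Relatives higher in E531R numbered 13 to 38, against 21, and those lower 3 to 12, against 4. Samples with the same replicate number did not deviate together in every pair (correlations of 0.00174, 0.192 and 0.238). With the replicate block, 1179 genes were higher and 1062 lower, with 8 and 2 neighbours and 18 and 3 relatives. No call of a named gene reversed under any of these alternatives. Depth limits the WT values of members, which rest on at most 29 reads.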
